A study of Mus musculus with 4 samples.

Results

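Collagen genes and the genes for the enzymes and chaperones that process collagen were examined in mouse 3T3-L1 cells given risperidone. The set was found by symbol. It holds every gene named Col, a number, a and a number, the lysyl oxidases Lox and Loxl1 to Loxl4, the prolyl 4-hydroxylase subunits P4ha1 to P4ha3, the lysyl hydroxylases Plod1 to Plod3, Serpinh1 and Pcolce. The deposited table listed 54 of these among its 16051 genes, of which 41 are collagens and 13 are enzymes or chaperones. All samples were 3T3-L1 cells, a mouse fibroblast line that can be turned into fat-storing cells, and per the study's methods they were differentiated before treatment. One group received DMSO (the solvent) and the other 100 µM risperidone, an antipsychotic drug, for 48 h, with 2 libraries in each group. For each library, RNA from 3 cultures was pooled, so the spread between libraries, and every p-value, measures pools and not single cultures. The labels call the control untreated, give the strain as NIH SWISS and the tissue as embryonic, and speak of retina in the extraction text, whereas the methods name DMSO as the control.

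Collagens are proteins of 3 chains wound around each other. Fibrillar collagens (types I, III, V, XI and others) build the fibrils that carry tension, type IV collagen builds the sheet of the basement membrane that surrounds each fat cell, and type VI forms beaded filaments around cells. Inside the cell, prolyl and lysyl hydroxylases modify the chains and the chaperone HSP47 (Serpinh1) guards the folded helix, and after export the ends are trimmed and lysyl oxidases cross-link the fibrils.

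The libraries held 15883712 to 16374119 estimated counts, of which members took 2.73% to 2.85% (exact Clopper-Pearson 95% intervals ran from 2.72% to 2.86% and cover counting error only). The detection limit of 3 counts corresponds to at most 0.189 CPM. Of 10 adipocyte markers only Fabp4, Lpl and Pparg had a mean of at least 1 FPKM (fragments scaled by transcript length and by the number of mapped reads, a level comparable between genes), while Adipoq, Plin1, Cebpa and the other 4 had 0 to 14 counts in each library. All 8 fibroblast and preadipocyte markers passed this level. The summed FPKM of the adipocyte markers was 377 and 431 with DMSO and 265 and 275 with risperidone, and that of the fibroblast markers was 866 and 839 against 844 and 853. Fabp4, a fatty acid carrier of fat cells, fell by 1.09 on the log2 scale, while Lpl fell by 0.24 and Pparg did not pass the test. Of the 8 fibroblast and preadipocyte markers 4 rose and 2 fell, beside 32.1% and 32.2% of all genes that passed this level. Ly6a, among the 4 that rose, was at 1.93 and 1.84 FPKM with DMSO. With risperidone it was at 2.49 FPKM in replicate 1 and 5.58 FPKM in replicate 2. The largest rise was that of Dlk1 (1.52), and the decreases were those of S100a4 (−0.83) and Pdgfrb (−0.50). In such bulk samples, fewer cells of a type and less RNA per cell cannot be told apart. Risperidone replicate 2 stood apart from the other libraries. The 14 kidney markers summed to 3337 counts in it and to 71 to 101 counts in the other libraries, with Kap, Umod and Slc34a1 among them. This library also had 14657 genes above 0, beside 13810 to 13962, and 47 counts of the 6 endothelial markers, beside 11 to 14. No retina or endothelial marker listed reached a mean of 1 FPKM. Of 5 macrophage markers only Cd68 did. It was at 2.64 and 3.50 FPKM with DMSO and 6.34 and 6.70 FPKM with risperidone, a called rise of 1.19.

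Averaged over the 4 libraries, 30 members reached 1 FPKM, comprising 18 collagens and 12 enzymes or chaperones, and these were tested together with all other genes at that level, which made 10243 genes. With risperidone 11 members rose, 14 fell and 5 did not pass the test (edgeR's quasi-likelihood test, Benjamini-Hochberg adjusted p under 0.05). In limma, a linear-model test, on log2 TPM (a level per length with the same sum in each library), 6 members were called higher and 18 lower, beside 1536 and 5292 of all genes, whose median was −0.22 in that fit. The called share in the count test was 83.3% of the tested members, beside 64.3% of all genes tested, of which 32.1% rose and 32.2% fell. The FPKM values of both groups did not overlap for 27 of 30 members, beside 82.2% of all genes tested. A change of at least 0.5 on the log2 scale was called for 7 of 30 members, beside 27.7% of all genes tested, so large changes were not more frequent among members. The median log2 fold change was −0.03 over the tested members and 0.00044 over all genes tested. Without risperidone replicate 2, the library with the kidney markers, 9 members were called higher and 14 lower.

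Fibrillar chains and enzymes held members called in both directions. Of 9 tested fibrillar chains 2 rose and 7 fell, with a median log2 fold change of −0.46. All 3 tested basement membrane chains fell, with a median of −0.30. Of 6 other collagens 4 rose and 2 did not pass the test, with a median of 0.25, but in limma on TPM 2 were called lower and the rest were not called. Among the 12 tested enzymes and chaperones 5 rose and 4 fell, with a median of 0.06. Without DMSO replicate 2, or without the filter on low values, 2 enzymes were called lower in place of 4. These medians include members that did not pass the test. The called share was 100% of the tested fibrillar and of the tested basement membrane chains. It was 66.7% of other collagens and 75% of enzymes and chaperones, beside 64.3% of all genes tested.

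**Figure D1:**
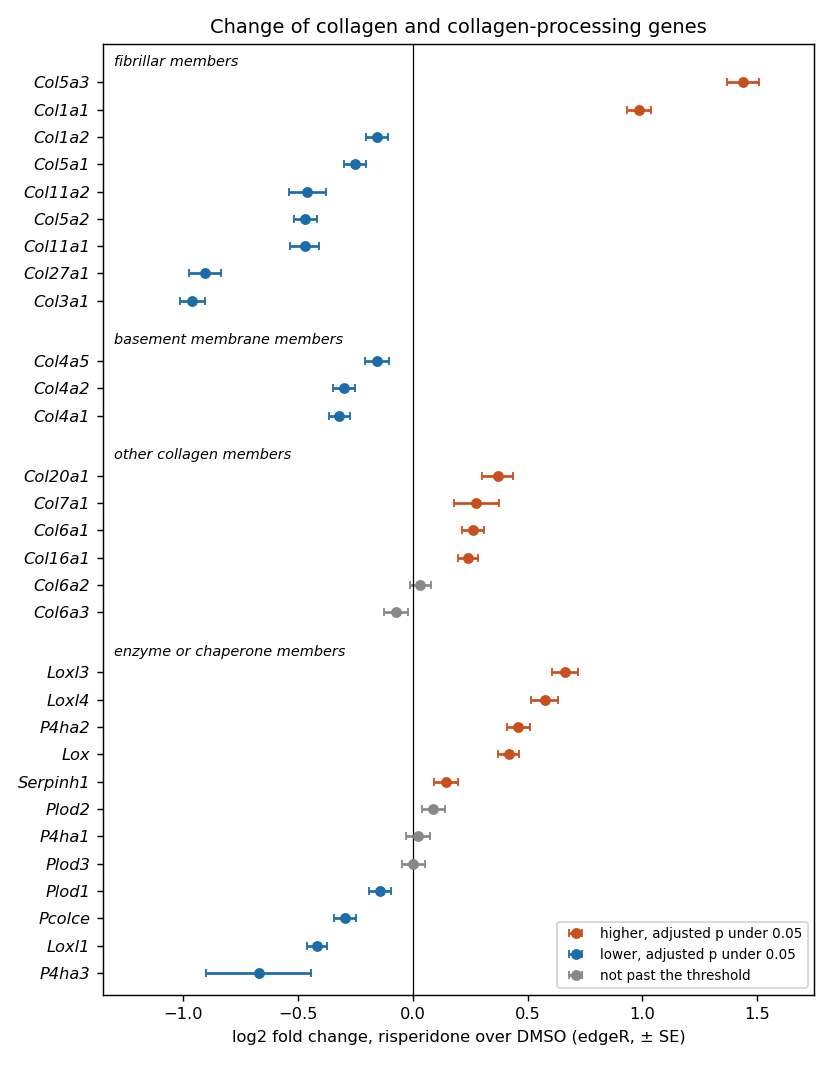
Log2 fold change (risperidone over DMSO, x axis) of each of the 30 tested members, with bars for the standard error from edgeR, sorted within 4 classes. Orange points rose, blue points fell and grey points did not pass the test. Col5a3 and Col1a1 stand apart at 1.44 and 0.99 among fibrillar chains that otherwise lie below 0.

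Type I collagen, the most abundant fibrillar collagen, joins 2 chains from Col1a1 with 1 from Col1a2. Col1a1 (NCBI Gene 12842, GRCm38 chr11:94936224-94953042, plus strand) was at 379.8 and 368 FPKM in the DMSO libraries and at 715 and 674 FPKM in the risperidone libraries. Both risperidone values lay far above both DMSO values, and Col1a1 rose by 0.99 ± 0.0523 (SE) on the log2 scale, a 1.98-fold change (adjusted p = 1.06e-07, n = 2 per group). Without any 1 library the change stayed between 0.94 and 1.04. Its partner Col1a2 (NCBI Gene 12843, chr6:4505618-4541543, plus strand) was at 1029 and 992 FPKM with DMSO and at 833 and 865 FPKM with risperidone. Col1a2 had the second highest mean FPKM of all members and fell by 0.16 ± 0.0483 (adjusted p = 0.0152). This small decrease was lost without DMSO replicate 1 (−0.13, adjusted p = 0.216), without DMSO replicate 2 (−0.18, adjusted p = 0.0612) and with offsets for transcript length (−0.06, adjusted p = 0.224), but it was called with offsets for length and GC content (−0.12, adjusted p = 0.0182).

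Type III collagen is formed by Col3a1 alone and is often found in the same fibrils as type I. Col3a1 (NCBI Gene 12825, chr1:45311538-45349706, plus strand) was at 105 and 109 FPKM with DMSO and at 49.3 and 53.8 FPKM with risperidone. The groups did not overlap, and Col3a1 fell by 0.96 ± 0.0532, to 0.514 of its level (adjusted p = 1.34e-07). Its change without any 1 library stayed between −1.01 and −0.91. The level of Col3a1 per Col1a1, both as FPKM, went from 0.276 and 0.296 to 0.0690 and 0.0797.

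The sequences just upstream of Col1a2, the fibrillar chain with the highest mean FPKM, and of Col3a1, the tested member with the largest decrease, are shown as 120 bases 5′ to 3′ ending at the base before the RefSeq start site (GRCm38.p6, plus strand, chr6:4505498-4505617 and chr1:45311418-45311537). Capitals mark the letters CCAAT in Col1a2 and TATAAA in Col3a1, which begin 109 and 117 bases before the start.
Col1a2: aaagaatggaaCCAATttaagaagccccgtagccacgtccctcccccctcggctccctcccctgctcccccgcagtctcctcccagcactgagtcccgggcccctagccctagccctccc
Col3a1: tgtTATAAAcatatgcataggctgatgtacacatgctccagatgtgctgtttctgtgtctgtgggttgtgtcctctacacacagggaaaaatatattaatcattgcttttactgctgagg
RefSeq promoter windows, each from 250 bases before to 50 bases after a start site, were matched for 24 of the 30 tested members. Searched on both strands, CCAAT was in 9 of the 24, beside 39.8% of 8329 windows of genes tested and 37.9% of all 27025 windows. TATAAA was in 4 of the 24, beside 6.44% of tested genes and 14.2% of all windows. The Col3a1 window held TATAAA without CCAAT or GGGCGG, while that of Col1a2 held CCAAT and GGGCGG. These matches are letters in a window and no measure of binding.

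Types V and XI are low-abundance collagens that sit inside fibrils and set their diameter. Col5a3, a chain found in part of type V collagen, was at 5.54 and 5.16 FPKM with DMSO and at 13.2 and 14.02 FPKM with risperidone. It had the largest change of any tested member, a rise of 1.44 ± 0.0698 on the log2 scale or 2.71-fold (adjusted p = 6.25e-08). Both risperidone libraries lay above both DMSO libraries, and the level remained low beside the main chains. Col5a1, the chain present in most type V collagen, was at 127 and 123 FPKM with DMSO and at 96.4 and 99.5 FPKM with risperidone. It fell by 0.25 ± 0.0482 (adjusted p = 9.17e-04), and with offsets for transcript length it was at −0.11 (adjusted p = 0.0446). Col5a2 went from 88.5 and 89.7 FPKM to 58.1 and 62.7 FPKM, and it fell by 0.47 ± 0.0507 (adjusted p = 1.45e-05). Thus the 3 type V genes did not move in 1 direction.

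Both tested type XI chains fell by a like amount. Col11a1 fell by 0.47 ± 0.0637 and Col11a2 by 0.46 ± 0.0790, at mean levels of 5.86 and 8.43 FPKM with DMSO. Col27a1, a long-chain fibrillar collagen known from cartilage, was at 6.35 and 6.77 FPKM with DMSO and at 3.05 and 3.36 FPKM with risperidone. It fell by 0.90 ± 0.0688 on the log2 scale (adjusted p = 1.10e-06), with no overlap between groups. Col2a1, the cartilage fibrillar collagen, and Col24a1 had at most 5 and 2 counts in any library and were not tested.

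**Figure D2:**
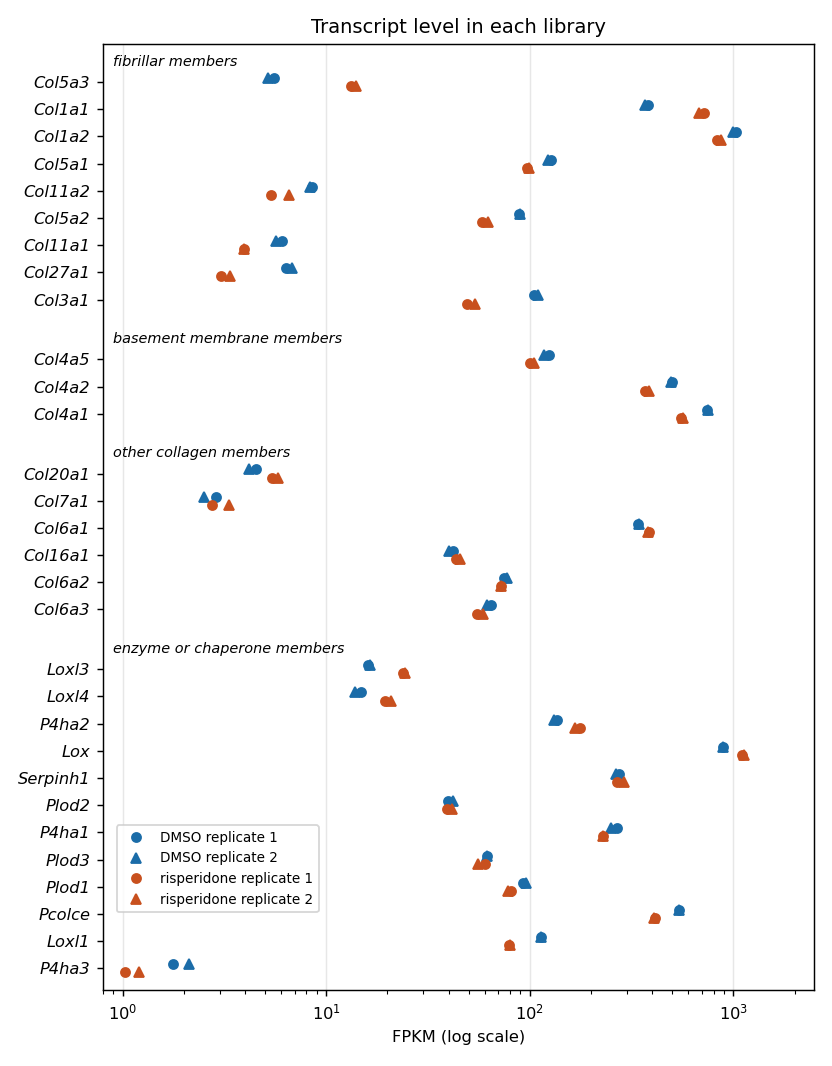
FPKM (x axis, log scale) of the 30 tested members in each library. Circles are replicate 1 and triangles replicate 2, in blue for DMSO and orange for risperidone. Lox, Col1a2 and Col4a1 lie farthest right, and the groups overlap for Col7a1, Plod2 and Serpinh1 only.

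Type IV collagen builds the network of the basement membrane, mostly from Col4a1 and Col4a2 chains. Col4a1 (NCBI Gene 12826, chr8:11198423-11312889, minus strand) was at 742 and 752 FPKM with DMSO and at 554 and 567 FPKM with risperidone. It fell by 0.32 ± 0.0463 (adjusted p = 1.23e-04). Col4a2 (NCBI Gene 12827, chr8:11312805-11449287, plus strand) was at 497 and 493 FPKM with DMSO and at 369 and 384 FPKM with risperidone, and it fell by 0.30 ± 0.0474 (adjusted p = 2.22e-04). For both chains all risperidone values lay below all DMSO values. With length offsets Col4a1 was at −0.20 (adjusted p = 0.00149) and Col4a2 at −0.19 (adjusted p = 0.00201). These genes lie head to head on opposite strands, with RefSeq start sites 21 bases apart and overlapping 5′ ends. Exons of Col4a1 share 22 bases with Col4a2. The FPKM ratio of Col4a1 to Col4a2 was 1.49 and 1.53 with DMSO and 1.502 and 1.48 with risperidone.

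Col4a5, an X-linked chain of type IV collagen, was at 125 and 117 FPKM with DMSO and at 99.95 and 105 FPKM with risperidone. It fell by 0.15 ± 0.0519 (adjusted p = 0.0223), which did not pass the test without DMSO replicate 1 (−0.11, adjusted p = 0.265), without the filter on low values (adjusted p = 0.0521) or with a correction for transcript length (−0.04, adjusted p = 0.432). Its neighbour Col4a6, whose start site is 1343 bases away on the other strand, had 2, 2, 2 and 0 counts. The summed FPKM of the basement membrane class was 1364 and 1363 with DMSO and 1024 and 1056 with risperidone.

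Col4a3 and Col4a4, chains known from the filtering membrane of the kidney, were found almost only in risperidone replicate 2. Col4a3 had 2 and 2 counts with DMSO and 0 and 15 counts with risperidone. Col4a4 had 1 and 0 counts with DMSO and 0 and 25 counts with risperidone. Risperidone replicate 2 is also the library with 3337 counts of kidney markers, and the part of these in the counts of both chains was not tested. Both were below the level for testing, as were Col15a1 with at most 2 counts and Col18a1 with 65 and 83 counts against 38 and 58. Without a filter on low values none of these 4 passed the test (adjusted p for Col18a1 = 0.190).

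**Figure D3:**
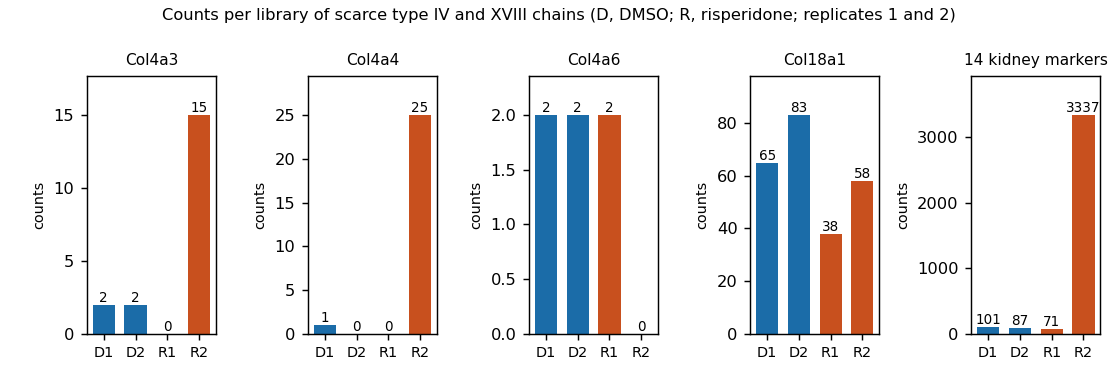
Estimated counts (y axis, each panel with its own scale from 0) in the DMSO (D1, D2) and risperidone (R1, R2) libraries of 4 scarce basement membrane chains and of the 14 kidney markers summed. Col4a3, Col4a4 and the kidney markers stand out in R2 alone, with 15, 25 and 3337 counts.

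Of the other collagens, type VI makes the beaded filaments that surround fat cells and fibroblasts and is assembled from different chains. Col6a1 was at 340.4 and 343 FPKM with DMSO and at 385 and 382 FPKM with risperidone, without overlap, and rose by 0.26 ± 0.0468 (adjusted p = 5.43e-04). Col6a2 was at 75.1 and 77.4 FPKM with DMSO and at 72.5 and 72.6 FPKM with risperidone. Its log2 fold change was 0.03 (adjusted p = 0.545). Col6a3 was at 64.6 and 61.5 FPKM with DMSO and at 55.2 and 58.9 FPKM with risperidone, with a log2 fold change of −0.07 (adjusted p = 0.255), which passed the test without risperidone replicate 2 (−0.11, adjusted p = 0.0476). In limma on TPM Col6a1 was at 0.02 (adjusted p = 0.667) and Col6a2 (−0.21) and Col6a3 (−0.29) were called lower. Relative to the median of all genes in that fit these values were 0.25, 0.011 and −0.06. This is a description only, since subtracting the median removes a shift that all genes share. With length offsets Col6a2 was called higher (0.11, adjusted p = 0.0350). The FPKM of a library is scaled per mapped read and the fold change by TMM factors, which is why the sign of Col6a2 differs between FPKM and fold change.

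Col16a1, which joins other matrix fibrils without forming its own, rose by 0.24 ± 0.0451, from a mean of 41.0 ± 1.46 to 44.4 ± 1.23 FPKM (SD, n = 2). It was not called in limma on log2(FPKM + 1) (0.11, adjusted p = 0.0874) or log2(FPKM + 0.1) (0.11, adjusted p = 0.0900). In limma on TPM it was at −0.028, 0.20 above the median of all genes there. Col20a1, of the same fibril-associated kind, rose by 0.37 ± 0.0669, from 4.35 ± 0.247 to 5.61 ± 0.262 FPKM, and did not pass the test in limma on TPM (0.20, adjusted p = 0.113). Col7a1, which forms the anchoring fibrils of skin, was at 2.89 and 2.51 FPKM with DMSO and at 2.76 and 3.35 FPKM with risperidone. The groups overlapped, and the called change of 0.28 ± 0.0981 (adjusted p = 0.0290) was lost without DMSO replicate 2 (0.18, adjusted p = 0.190), without risperidone replicate 2 (0.14, adjusted p = 0.248) and in DESeq2 (adjusted p = 0.1004).

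The 24 members under a mean of 1 FPKM were 23 collagens and Loxl2, and 18 of them had fewer than 8 counts in every library. Besides Col4a3, Col4a4 and Col18a1, the other 3 with more counts were Col12a1, Col8a1 and Col9a3. Col12a1, a fibril-associated collagen, had 137 and 132 counts with DMSO and 78 and 75 counts with risperidone. When all 16021 genes with counts were tested without a filter, of which 37.6% passed, Col12a1 fell by 0.72 ± 0.114 (adjusted p = 0.00590). Col8a1, a short-chain collagen of vessel walls and cornea, had 35 and 35 counts with DMSO and 60 and 67 counts with risperidone, and rose by 0.95 ± 0.187 in that fit (adjusted p = 0.0125). Col9a3 had 49 and 47 counts against 25 and 35 (adjusted p = 0.137). No other member under the filter passed this test. Col14a1, Col28a1, Col23a1, Col10a1, Col6a4, Col22a1, Col8a2, Col26a1, Col19a1, Col6a5, Col13a1, Col17a1 and Col25a1 had at most 6 counts in any library, which limits what can be said of them.

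Prolyl 4-hydroxylase converts prolines in the chains so that the helix is stable at body temperature, and P4ha1 to P4ha3 encode its alternative catalytic subunits. P4ha2 (NCBI Gene 18452, chr11:54100924-54131668, plus strand) was at 135 and 132 FPKM with DMSO and at 176 and 168 FPKM with risperidone. It rose by 0.46 ± 0.0493 (adjusted p = 1.34e-05), with no overlap between groups. P4ha1 was at 267 and 251 FPKM with DMSO and at 230.05 and 228 FPKM with risperidone, yet its counts gave a log2 fold change of 0.02 (adjusted p = 0.702), beside −0.18 on log2(FPKM + 1) in limma (adjusted p = 0.0161). The transcript length that its count and FPKM imply was 2.83 and 2.84 kb with DMSO and 3.07 and 3.03 kb with risperidone, 7.84% longer. Such a difference of at least 5% without overlap was found for 2 of the 29 members with a length in every library, P4ha1 and Col20a1, beside 5.25% of 7715 genes with at least 200 counts. P4ha3, the scarcest subunit, was at 1.77 and 2.12 FPKM with DMSO and at 1.03 and 1.21 FPKM with risperidone and fell by 0.67 ± 0.228 (adjusted p = 0.0238). Its call was lost without DMSO replicate 2 (−0.49) and without risperidone replicate 1 (−0.56). It was also lost in DESeq2 (−0.67, adjusted p = 0.113) and without a filter on low values (−0.67, adjusted p = 0.0563).

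Lysyl hydroxylases modify lysines that later carry sugars or cross-links. Plod1 was at 92.6 and 95.6 FPKM with DMSO and at 81.3 and 78.4 FPKM with risperidone and fell by 0.14 ± 0.0473 (adjusted p = 0.0222). This call did not hold without DMSO replicate 1, DMSO replicate 2 or risperidone replicate 2 (−0.16, −0.12 and −0.11). Nor did it hold with the length correction (−0.08, adjusted p = 0.161). Plod2, whose product makes cross-links that resist breakdown, was at 39.5 and 41.8 FPKM with DMSO and at 39.3 and 41.7 FPKM with risperidone (log2 fold change 0.09, adjusted p = 0.138). With the length correction it was called higher (0.17, adjusted p = 0.00704). Plod3 was at 61.3 and 61.8 FPKM with DMSO and at 60.1 and 55.95 FPKM with risperidone (log2 fold change 0.0019, adjusted p = 0.976). Exons of Plod3 share 529 bases with Znhit1 on the other strand, and since it is not stated whether reads were counted by strand, these reads cannot be told apart.

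Serpinh1 encodes HSP47, a chaperone of the endoplasmic reticulum that binds folded procollagen. It was at 275 and 266 FPKM with DMSO and at 269 and 289.5 FPKM with risperidone, so the groups overlapped. The called change of 0.14 ± 0.0518 (adjusted p = 0.0305) was lost without DMSO replicate 1 (0.17), DMSO replicate 2 (0.12) or risperidone replicate 2 (0.096). It was also lost with a block for replicate number (0.14, adjusted p = 0.0518) and with library size only (0.051, adjusted p = 0.418). With length and GC offsets it was at 0.067 (adjusted p = 0.223). The value of Serpinh1 in limma on TPM was −0.10, which is 0.13 above the median of all genes in that fit. Pcolce, which speeds the trimming of procollagen ends, was at 539.95 and 539.99 FPKM with DMSO and at 413 and 408 FPKM with risperidone. It fell by 0.30 ± 0.0467 (adjusted p = 2.24e-04), and its 2 groups lay well apart.

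Lysyl oxidases oxidize lysines of collagen and elastin, which starts cross-linking outside the cell. Lox (NCBI Gene 16948) had the highest mean FPKM of all members and rank 78 among all genes. It was at 888 and 884 FPKM with DMSO and at 1099.6 and 1128 FPKM with risperidone, and rose by 0.42 ± 0.0466 (adjusted p = 1.78e-05). Loxl1, which is known for its part in elastic fibres, was at 113 and 114 FPKM with DMSO and at 79.4 and 79.6 FPKM with risperidone. It fell by 0.42 ± 0.0450 (adjusted p = 1.39e-05), the opposite direction to Lox. Loxl3 was at 16.1 and 16.3 FPKM with DMSO and at 23.8 and 24.4 FPKM with risperidone and rose by 0.66 ± 0.0566 (adjusted p = 2.48e-06). Loxl4 went from 14.9 and 13.9 FPKM to 19.4 and 20.7 FPKM, a rise of 0.58 ± 0.0583 (adjusted p = 9.11e-06). None of these 4 overlapped between groups, and their calls held without any 1 library. Exons of Loxl3 share 535 bases with Htra2 on the other strand. The summed FPKM of the lysyl oxidases was 1033 and 1028 with DMSO and 1222 and 1253 with risperidone, and Loxl2 had at most 7.38 counts in a library.

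P4ha2 and Loxl4 were called higher among the enzymes, and both have a promoter rich in G and C letters. Shown are the 120 bases before their RefSeq start sites in GRCm38.p6 (P4ha2 on the plus strand at chr11:54100804-54100923, Loxl4 on the minus strand at chr19:42612807-42612926), 5′ to 3′ along each gene. Capitals mark GGGCGG, which begins 18 bases before the start of P4ha2 and 89, 56 and 15 bases before that of Loxl4.
P4ha2: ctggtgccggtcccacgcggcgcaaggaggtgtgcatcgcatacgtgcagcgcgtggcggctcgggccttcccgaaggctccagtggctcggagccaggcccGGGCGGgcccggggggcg
Loxl4: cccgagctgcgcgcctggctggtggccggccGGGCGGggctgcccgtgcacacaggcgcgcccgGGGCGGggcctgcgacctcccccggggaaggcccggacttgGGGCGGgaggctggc
GGGCGG was in 19 of the 24 member windows on either strand, beside 67.4% of the windows of tested genes and 35.9% of all windows. Members that fell held it too, such as Pcolce, Plod1 and Col27a1.

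Ratios between chains that assemble together, or between alternative enzymes, compare genes within a library and do not depend on the scaling of libraries. The FPKM ratio of Col1a1 to Col1a2 was 0.369 and 0.371 with DMSO and 0.857 and 0.780 with risperidone, 2.21-fold higher. The ratio of Col5a3 to Col5a1 went from 0.0437 and 0.0420 to 0.137 and 0.141, 3.24-fold higher. By contrast the Col4a1 to Col4a2 ratio overlapped between groups, as did those of Col6a3 to Col6a2 and of Col11a1 to Col11a2. Col6a1 per Col6a2 was 4.53 and 4.44 with DMSO and 5.31 and 5.27 with risperidone.

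Among the enzymes, P4ha2 per P4ha1 was 0.506 and 0.527 with DMSO and 0.766 and 0.736 with risperidone. P4ha2 per P4hb, the common second subunit of the enzyme, went from 0.186 and 0.183 to 0.272 and 0.261, while P4ha1 per P4hb overlapped. The implied length of P4ha1 was 7.84% longer with risperidone, which lowers its FPKM at equal counts. Both FPKM ratios that hold P4ha1 include this difference. Loxl1 per Lox went from 0.128 and 0.128 to 0.0722 and 0.0705. In all, 15 ratios were computed. An exact two-sided permutation test of 2 libraries against 2 cannot give a p under 0.333, and the ratios are given here as values without another test.

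**Figure D4:**
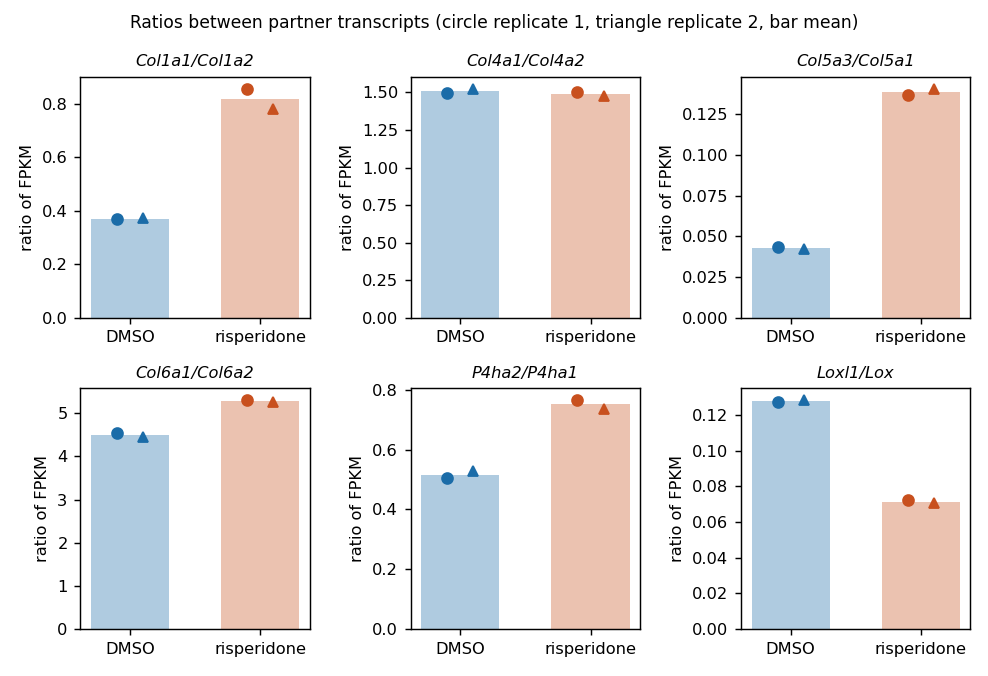
FPKM ratio (y axis, from 0) between 6 pairs of transcripts with DMSO and with risperidone, with circles for replicate 1, triangles for replicate 2 and bars for the mean. Col1a1/Col1a2 rises from 0.369 and 0.371 to 0.857 and 0.780, while Col4a1/Col4a2 stays at 1.48 to 1.53 in all 4 libraries.

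These shifts changed the makeup of the collagen transcripts more than their sum. All collagen genes together summed to 3651 and 3602 FPKM with DMSO and 3367 and 3410 FPKM with risperidone. Col1a1 made up 10.4% and 10.2% of that sum with DMSO and 21.2% and 19.8% with risperidone. Col4a1 made up 20.3% and 20.9% with DMSO and 16.5% and 16.6% with risperidone, and Col1a2 28.2% and 27.5% against 24.7% and 25.4%. The fibrillar class summed to 1755 and 1708 FPKM against 1777 and 1783 FPKM, with its decreases in most chains set against the increase of Col1a1.

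Genes that work with the members were counted in 6 lists of general knowledge, in the same fit. Of 54 tested genes in these lists 30 rose and 12 fell, with a median log2 fold change of 0.21. Of all genes tested 32.1% rose and 32.2% fell. In limma on TPM 16 were called higher and 18 lower, and without DMSO replicate 1 the number called lower was 7. Of 11 genes for folding and modification 7 rose and 3 fell (median 0.23). Fkbp10, a prolyl isomerase that aids collagen folding, rose by 0.55 ± 0.0448, from 69.5 ± 0.0707 to 95.4 ± 1.03 FPKM (SD, n = 2). Fkbp14, of the same family, fell by 0.53 ± 0.0679, and Colgalt1, which adds galactose to hydroxylysine, rose by 0.48 ± 0.0506. Creb3l1, a transcription factor of secretory cells that acts on type I collagen genes in bone, rose by 0.46 ± 0.126.

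Of 9 genes for procollagen export and removal of its ends 7 rose and 2 did not pass the test (median 0.44), beside the 32.1% of all genes tested that rose. Sec24d and Sec23a, parts of the coat of vesicles leaving the endoplasmic reticulum, rose by 0.61 ± 0.0513 and 0.53 ± 0.05004. Kdelr2, which returns resident proteins to that compartment, rose by 0.59 ± 0.0526, and Adamts14, a protease for the amino end of procollagen, by 0.59 ± 0.0828. The 4 genes are not members of the set, and Pcolce, which acts at the same step as Bmp1, fell while Bmp1 rose by 0.22 ± 0.0454.

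Of 9 genes for collagen breakdown and uptake 4 rose and 4 fell (median −0.04). For these and the lists below, 32.1% of all genes tested rose and 32.2% fell. Ctsk, a protease that cuts collagen helices, fell by 0.65 ± 0.0849, while the lysosomal protease Ctsb and the gelatinase Mmp2 rose by 0.42 ± 0.0492 and 0.42 ± 0.0634. Timp1, an inhibitor of matrix metalloproteases, fell by 0.36 ± 0.0574. Of 4 tested collagen receptors 2 rose and 2 fell (median −0.0040), with Itga1 up by 0.68 ± 0.146, Itgb1 up by 0.17 ± 0.0478, Ddr2 down (−0.47 ± 0.0523) and Ddr1 down (−0.18 ± 0.0447).

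Of 11 matrix partners of fibrils 5 rose and 1 fell (median 0.18), beside 32.1% and 32.2% of all genes tested. The fibulins Fbln1 and Fbln2 rose by 1.38 ± 0.134 and 0.79 ± 0.0477, thrombospondin 1 (Thbs1) rose by 0.77 ± 0.0822, and tenascin C (Tnc) fell by 1.01 ± 0.134. Of 10 genes of TGF-beta signalling, a known regulator of collagen genes, 5 rose and 2 fell (median 0.21), beside the same shares. The ligand Tgfb2 went from 1.15 ± 0.0424 FPKM to 3.72 ± 0.0424 FPKM (SD, n = 2), a rise of 1.78 ± 0.130, and Ctgf, a known target, went from 0.59 and 0.53 FPKM to 1.79 and 1.90 FPKM, a rise of 1.81 ± 0.244. Ctgf reached the level for testing only through its risperidone values, and Tnc only through its DMSO values. The receptor Tgfbr2 fell by 0.61 ± 0.0535 and the signal carrier Smad3 rose by 0.60 ± 0.0558.

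Small changes depended on the test and on how libraries were scaled. In edgeR with library sizes in place of TMM factors, 9 members were called higher and 15 lower. Limma on log2(TPM + 1) changes the test as well as the scaling. Relative to the median of all genes in that fit, all 25 called members had the sign of the count test, as a description only, since subtracting the median removes a shift that all genes share. With offsets for transcript length Col1a2, Col4a5 and Plod1 were no longer called, while Col1a1, Col3a1, Col5a3, Col27a1, Lox, Loxl1, Loxl3, Loxl4 and P4ha2 kept their calls. With offsets for length and GC content, which were chosen after the data were seen, Col1a2 was called and Col4a5, Plod1 and Serpinh1 were not.

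**Figure D5:**
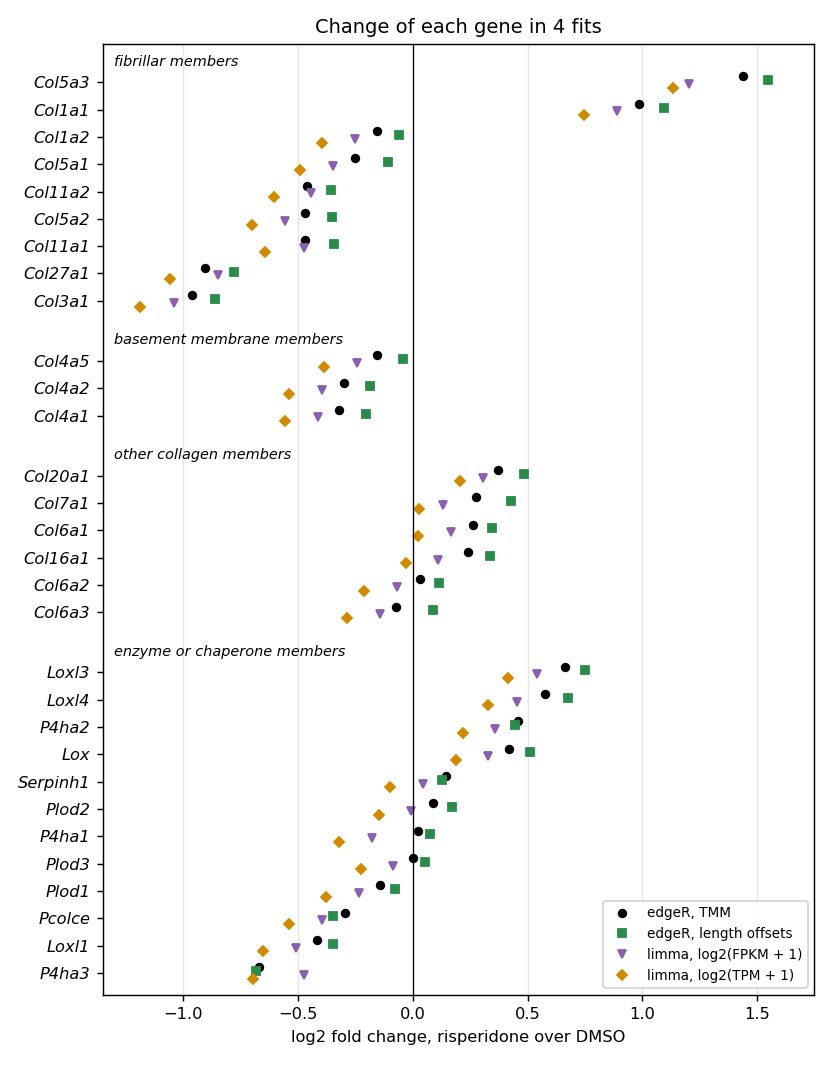
Log2 fold change (risperidone over DMSO, x axis) of the 30 tested members in 4 fits, namely edgeR with TMM (circles), edgeR with length offsets (squares), limma on log2(FPKM + 1) (triangles) and limma on log2(TPM + 1) (diamonds). Most genes shift together between fits, and Col1a1, Col5a3, Col3a1 and Col27a1 keep their direction in all 4.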

How the data were processed

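mRNA of 3T3-L1 cells was sequenced on MGISEQ-2000, with 2 libraries per group. The authors removed adaptor, poly-N and low-quality reads. The deposited table gives, per library, estimated counts (expected counts, not normalized), FPKM computed by the authors from mapped reads, and TPM as deposited. The submitters' processing notes name Bowtie2, RSEM, DESeq2 and GRCm38.p6, without roles or versions. Dose, time and pooling were taken from the study's methods. The authors' own group means, fold changes and p-values were not used.

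Counts were rounded and tested in R 4.3.3 with edgeR 4.0.16 (quasi-likelihood F-test, TMM, two-sided, Benjamini-Hochberg over 10243 genes that averaged 1 FPKM or more, threshold 0.05, all 4 libraries). Standard errors were derived from the F statistic (size of the log2 fold change over root F). The members, classes and lists were chosen with earlier results of these data known. Named genes are all members, with values per library for called members whose log2 fold change was 0.5 or more in size, the 10 highest by FPKM and those whose call or direction was lost without 1 library, and up to 4 called genes of each partner list. Bmp1 and P4hb were named after their values were seen, as were per-library values of further members. Alternatives were other filters, library-size scaling, DESeq2 1.42.0, limma 3.58.1 on log2 FPKM (pseudocount 1 or 0.1) and log2 TPM (pseudocount 1), a replicate block, leaving out each library, length offsets and, added after the data were seen, length and GC offsets. On simulated data with 200 changed genes of 10243 the test made few false calls. In the real data 6590 genes were called, so the simulation does not show the error at that share. With a simulated trend by gene length, false calls were frequent without length offsets and rare with them. Gene positions and promoters are from RefSeq, and gene strands and shared exon bases from GENCODE. Protein sequences were not analysed here.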

Additional observations from a re-analysis of the deposited data

How the results depend on the processing

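Of 25 called members, 16 kept their direction and call under all 15 alternatives that gave a value, and 23 kept their direction. The other 2, Serpinh1 and Col16a1, turned in limma on TPM alone, where the median of all genes was −0.22, and lay 0.13 and 0.20 above it. The fit that moved the most, limma on TPM, changes both test and scaling. With it, 6 members were called higher, other collagens were called higher 0 times and lower 2 times, 16 partner genes were called higher, all genes split into 1536 higher and 5292 lower (22.5% of calls higher, beside 49.9%), and the values were −0.10 for Serpinh1, −0.028 for Col16a1, −0.15 for Plod2, −0.23 for Plod3, −0.32 for P4ha1 and −0.21 for Col6a2. With limma on log2(FPKM + 1), 2 other collagens were called higher and 1 lower, with Plod2 at −0.0057, Plod3 at −0.084, P4ha1 at −0.18 and Col6a2 at −0.070, and 37.8% of calls were higher. With a pseudocount of 0.1 these were 2 and 1, with −0.0059, −0.085, −0.18 and −0.071. With library size only, 37.9% of calls were higher and 1 other collagen was called lower, with −0.0039 for Plod2, −0.092 for Plod3, −0.070 for P4ha1 and −0.061 for Col6a2. With a mean of at least 5 FPKM, 2 other collagens were called higher, with fewer genes tested, and Plod3 was at −0.023 and P4ha1 at −0.00099. Without a filter 1 other collagen (Col12a1, untested otherwise) and 2 enzymes were called lower. With length offsets Col6a3 was at 0.088, and with length and GC offsets, chosen after seeing the data, at 0.034, with Plod3 at −0.0046. The causes were not tested.

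Without 1 library each, 0 to 1 other collagens, 2 to 3 enzymes and 7 to 13 partner genes were called lower, 9 to 11 members higher and 11 to 14 lower. The lowest counts came without DMSO replicate 2 for enzymes (2) and without DMSO replicate 1 for partner genes (7), and the 1 other collagen is Col6a3 without risperidone replicate 2. The value of Plod3 ranged from −0.058 to 0.060 and that of P4ha1 from −0.022 to 0.071. The replicate block changed 1 member call, that of Serpinh1 (0.14, adjusted p = 0.0518), leaving 10 members higher and 14 lower, and 3292 and 3321 of all genes. Same-numbered libraries did not deviate together (correlation −0.0622 between deviations from the group means), so the numbers were not taken as pairs. The 4 called members whose change was under 0.2 on the log2 scale (Col1a2, Col4a5, Plod1 and Serpinh1) each lost their call without at least 1 library, and members with few counts cannot be judged at this depth.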
